A study of Mus musculus with 12 samples.

Results

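Ino80 occupancy was examined at 9 imprinted genes, H19, Igf2, Peg3, Dlk1, Meg3, Igf2r, Mest, Peg10 and Gnas, in J1 mouse embryonic stem cells. The genes fall into 7 windows of the mouse genome (build mm9), and every Ino80 peak that overlapped a window by at least 1 bp was taken. The windows are defined by position, but they were chosen with earlier results of these data known. Of the 12749 peaks in the list, 10 lay in these windows. The windows were not checked against an mm9 gene annotation, so a peak is assigned to a window and not to a promoter, exon or intron of a gene.

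Chromatin immunoprecipitation sequencing (ChIP-seq) recovers and sequences the DNA that an antibody brings down with a protein. The peak list came from 1 library of J1 cells, an established embryonic stem cell line for which the labels give no treatment or genetic change, fixed with formaldehyde and precipitated with an Ino80 antibody. The series names 11 further libraries: the matching input, and inputs and ChIPs for Oct4, Klf4, Med1 and RNA polymerase II in J1 cells carrying a lentiviral short hairpin RNA, either non-targeting or labelled Ino80KD. The labels list 1 Ino80 ChIP, so the values below have no replicate error. The other libraries were not analysed here, so no comparison with knockdown cells was made, and the labelled cell type could not be checked against expression markers.

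Ino80 is the ATPase of the INO80 complex, which slides and spaces nucleosomes and acts at promoters and in DNA replication and repair. Imprinted genes are expressed mainly from the copy inherited from 1 parent. The expressed copy named below for each gene is general background, can differ between cell types and was not examined in these cells. The parental copies are told apart by DNA methylation at CpG dinucleotides, laid down in the germ line over short control regions, and proteins such as ZFP57 keep that methylation through early development. Embryonic stem cells carry these marks, which can be lost in culture.

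The RefSeq promoter sequences of 4 members are shown as examples of the sequence at these genes' starts, for the 3 windows with more than 1 peak (Gnas, Meg3/Dlk1 and Peg3) and for Mest, whose window had none. Each is the 250 bases before a transcription start, 5′ to 3′ on the gene's strand, with CpG dinucleotides in capitals. Where a gene has several starts in the table, the start with the most CpG is given, and for Mest the first of 2 equal ones. The control regions that carry the imprinting marks were not located here, and these sequences are not offered as such regions. Coordinates of these 4 sequences are in GRCm38.p6 and cannot be set beside the mm9 positions of the peaks. They are chr2:174329756-174330005 (plus strand) for Gnas, chr12:109540746-109540995 (plus) for Meg3, chr7:6730420-6730669 (minus) for Peg3 and chr6:30737800-30738049 (plus) for Mest.
Gnas: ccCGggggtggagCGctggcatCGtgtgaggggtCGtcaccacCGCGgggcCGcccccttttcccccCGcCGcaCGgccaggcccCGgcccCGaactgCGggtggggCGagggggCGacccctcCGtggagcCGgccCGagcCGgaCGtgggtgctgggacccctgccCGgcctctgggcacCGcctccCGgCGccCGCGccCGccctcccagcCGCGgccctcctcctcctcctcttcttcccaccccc
Meg3: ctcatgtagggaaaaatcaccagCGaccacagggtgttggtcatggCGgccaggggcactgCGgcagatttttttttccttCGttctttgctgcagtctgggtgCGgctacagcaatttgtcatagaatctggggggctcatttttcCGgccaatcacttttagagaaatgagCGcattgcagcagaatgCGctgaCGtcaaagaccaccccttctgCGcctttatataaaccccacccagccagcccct
Peg3: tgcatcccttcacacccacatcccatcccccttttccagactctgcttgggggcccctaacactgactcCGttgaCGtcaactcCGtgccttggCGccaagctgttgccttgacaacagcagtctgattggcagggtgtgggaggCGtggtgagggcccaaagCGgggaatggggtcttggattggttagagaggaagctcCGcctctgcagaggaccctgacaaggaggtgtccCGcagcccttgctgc
Mest: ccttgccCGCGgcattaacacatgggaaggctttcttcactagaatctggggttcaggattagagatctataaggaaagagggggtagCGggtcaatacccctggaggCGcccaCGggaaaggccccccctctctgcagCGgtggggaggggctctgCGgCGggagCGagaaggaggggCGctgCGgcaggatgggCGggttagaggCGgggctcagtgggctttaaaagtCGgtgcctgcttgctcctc

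The printed Gnas sequence holds 29 CpG, Mest 14, Meg3 10 and Peg3 8. RefSeq gave 16 promoter windows of 300 bases (250 before and 50 after a start) for 7 of the members, and H19 and Peg10 had no entry. Their median was 15 CpG, against 7 over all 32851 promoter windows of the table. This median is over starts and not over genes, and some starts of Gnas and of Mest overlap almost wholly but are counted separately. The member with the most was Gnas, at 40 CpG in the window of the printed start, followed by Igf2r at 34. The lowest values were 1 CpG at another Meg3 start and 2 at an Igf2 start. Starts of the same gene differed, from 2 to 24 CpG at Igf2 and from 16 to 40 at Gnas.

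Letters known to be bound by 2 factors were searched on both strands of these windows. The ZFP57 core, TGCCGC, was present in 4 of the 16 windows, belonging to Meg3, Mest and Igf2, compared with 11.6% of all promoter windows. The core itself holds a CpG, and the members' windows had a median of 15 CpG against 7 over all windows. The comparison is not matched for CpG number, so it does not show whether the core is more frequent than in other promoters of like CpG number. Of these 4 windows, 2 are Mest windows that overlap almost wholly and hold the same matches, so 3 separate sequences carry the core. In the sequence printed for Meg3 it starts at base 61, and in that printed for Mest at bases 9 and 184, each time on the opposite strand. A YY1 motif, GCCATNTT, was in 0 of the 16 windows and in 6.05% of all promoter windows. YY1 is a DNA-binding partner of the INO80 complex. With no YY1 match, overlap of these 2 motifs could not be examined. A match is a description of the sequence only.

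Ino80 peaks were found in 5 of the 7 windows. Gnas held 4, Peg3 and Meg3/Dlk1 held 2 each, and H19/Igf2 and Igf2r held 1 each. The windows of Mest and Peg10 held none. For comparison, the autosomes were cut from the first to the last peak into bins of the same lengths as the windows. At least 1 peak was present in 31.6% of bins of 110 kb (the length for Mest and Peg10), 33.1% of 120 kb (Gnas), 36.2% of 140 kb (Peg3), 37.3% of 150 kb (Igf2r) and 43.5% of 200 kb (H19/Igf2 and Meg3/Dlk1). A bin without a peak was thus the more frequent kind at every length, and the empty windows of Mest and Peg10 belonged to it. The bins include gene-poor sequence whereas each window was placed on genes, so these shares are no estimate for gene loci.

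**Figure D1:**
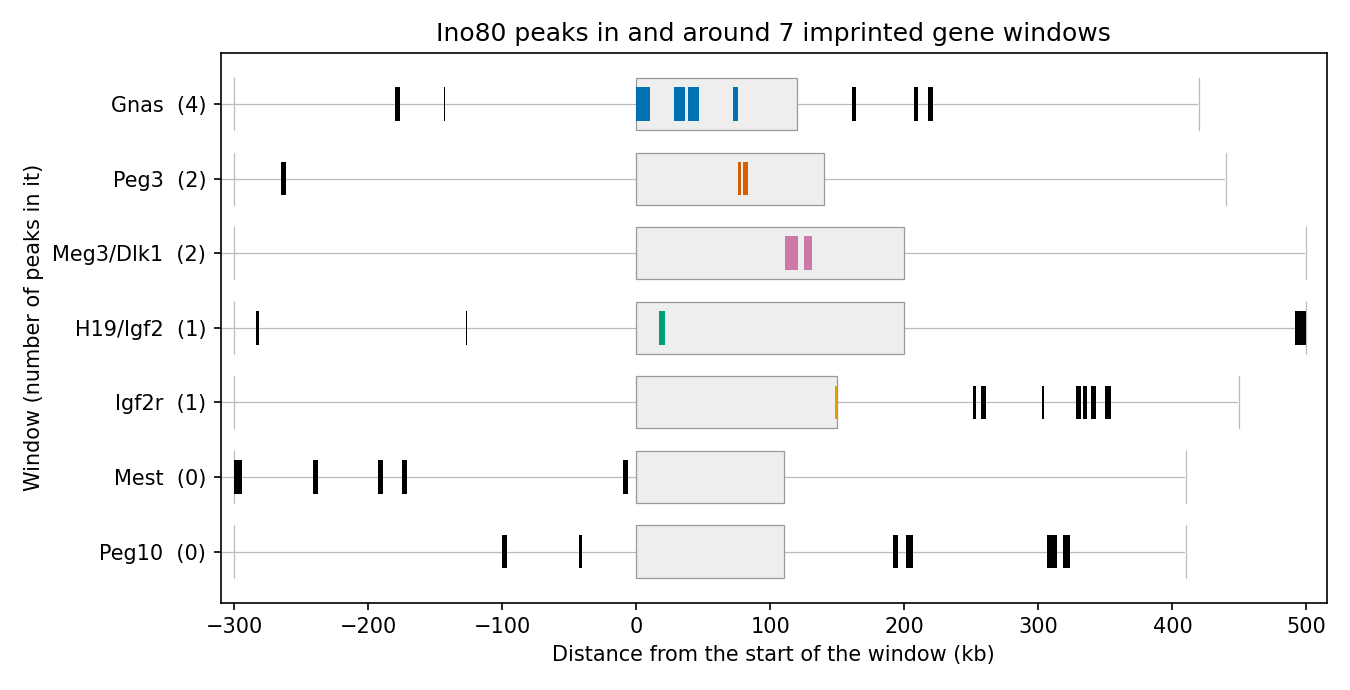
Ino80 peaks (bars, drawn to scale) in the 7 windows (grey boxes) and within 300 kb on each side, as distance in kb from the start of each window; coloured bars overlap the window and black bars do not. Gnas holds 4 peaks, Mest and Peg10 none, and the peaks of Peg3 and Meg3/Dlk1 stand in close pairs.

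The Gnas window stood at the upper end. Gnas encodes the stimulatory G protein alpha subunit, and the locus makes several transcripts from alternative first exons, some from the maternal and some from the paternal copy. Its 4 peaks on chromosome 2 ran from 174079801 to 174089800 (10 kb), from 174107801 to 174116600 (8.8 kb), from 174118201 to 174126400 (8.2 kb) and from 174151801 to 174156200 (4.4 kb). The first began 199 bp before the window. Distances between them were 18.0, 1.6 and 25.4 kb, and from end to end they spanned 76.4 kb. The annotated Gnas gene is 62.4 kb long in GRCm38.p6, shorter than this span with its gaps, while the peaks themselves sum to 31.4 kb. The peaks were not placed on the gene. Together they covered 26.0% of the window. At least 4 peaks were found in 4.4% of autosomal bins of 120 kb. Gnas is the window with the most peaks of the 7, so this share for a single bin does not measure how unusual its count is. With peaks less than 5 kb apart joined, or with the window shortened by 20 kb on each side, it held 3. The next peaks outside lay 142.4 kb before the first and 85.0 kb after the last.

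At Meg3/Dlk1 a pair of wide peaks stood alone. Meg3 is a long noncoding RNA expressed from the maternal copy, and Dlk1 encodes a Delta-like membrane protein expressed from the paternal copy. The peaks lay on chromosome 12 from 110761001 to 110770800 (9.8 kb) and from 110774801 to 110781000 (6.2 kb), separated by 4.0 kb, and spanned 20 kb in all. No other peak was within 452.8 kb before them or 403.6 kb after them. Distances this long or longer made up 10.4% and 11.7% of the 12523 distances between neighbouring autosomal peaks, whose median was 45 kb. At least 2 peaks were present in 23.8% of bins of 200 kb. Both genes are shorter than the window, Meg3 at 30.7 kb and Dlk1 at 10.9 kb, and which of them the peaks touch was not determined.

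The Peg3 window had a similar arrangement with narrower peaks. Peg3 encodes a zinc finger protein expressed from the paternal copy, and Usp29 is its neighbour in the gene table. On chromosome 7 the peaks ran from 6675601 to 6678000 (2.4 kb) and from 6679601 to 6683000 (3.4 kb), 1.6 kb apart, and together spanned 7.4 kb near the middle of the window. The preceding peak lay 337.4 kb away and the following one 401.0 kb away. Bins of 140 kb with at least 2 peaks made up 17.6% of all such bins. The Peg3 peaks covered 4.14% of their window and the Meg3/Dlk1 peaks 8% of theirs.

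Where a window had only 1 peak, that peak lay towards the window's edge. H19 is a maternally expressed noncoding RNA, and Igf2, a paternally expressed growth factor gene, shares its control region, which CTCF binds on the unmethylated maternal copy. The peak of this window was 4.0 kb wide, on chromosome 7 from 149717201 to 149721200, and began 17.2 kb after the window start. After it, 178.8 kb of the window had no peak. Measured from the end of this peak, the next one was 470.4 kb away, which is 291.6 kb beyond the window. In the annotation H19 is 2.62 kb and Igf2 16.0 kb long.

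Igf2r encodes a receptor that carries IGF2 to lysosomes and is expressed from the maternal copy, and the noncoding RNA Airn overlaps it. The only peak of its window, 2.0 kb wide on chromosome 17 from 12998001 to 13000000, ended on the last base of the window. The 148.0 kb of the window before it held no peak, and the previous peak was 484.8 kb away. The annotated Igf2r gene is 87.3 kb long in GRCm38.p6, but it was not placed within the window, so whether its body is free of peaks was not determined. A further peak lay 101.4 kb beyond the window. With the window shortened by 20 kb on each side, Igf2r had 0 peaks.

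Mest encodes an alpha/beta hydrolase family protein and Peg10 a retrotransposon-derived protein needed for the placenta. Both genes are expressed from the paternal copy. No peak overlapped either window, although both lay on chromosome 6 with peaks nearby. The nearest peak ended 6.4 kb before the Mest window, and on the other side the next one was 339.8 kb away, so the stretch without a peak across Mest measured 456.2 kb. Stretches this long or longer made up 10.4% of autosomal distances between peaks. Around Peg10 the nearest peaks were 40.2 kb before and 81.4 kb after the window. That left 231.6 kb without a peak, a length reached by 18.9% of distances. A window without a peak can only lie in a stretch at least as long as itself, 110 kb for both genes. Most distances between peaks are shorter than that, so both shares do not measure how unusual these stretches are. The annotated genes, 15.0 kb for Mest and 13.2 kb for Peg10 in GRCm38.p6, are far shorter than these stretches but were not placed within them. The list gives no read depth, so a signal below the peak caller's threshold cannot be told from none.

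**Figure D2:**
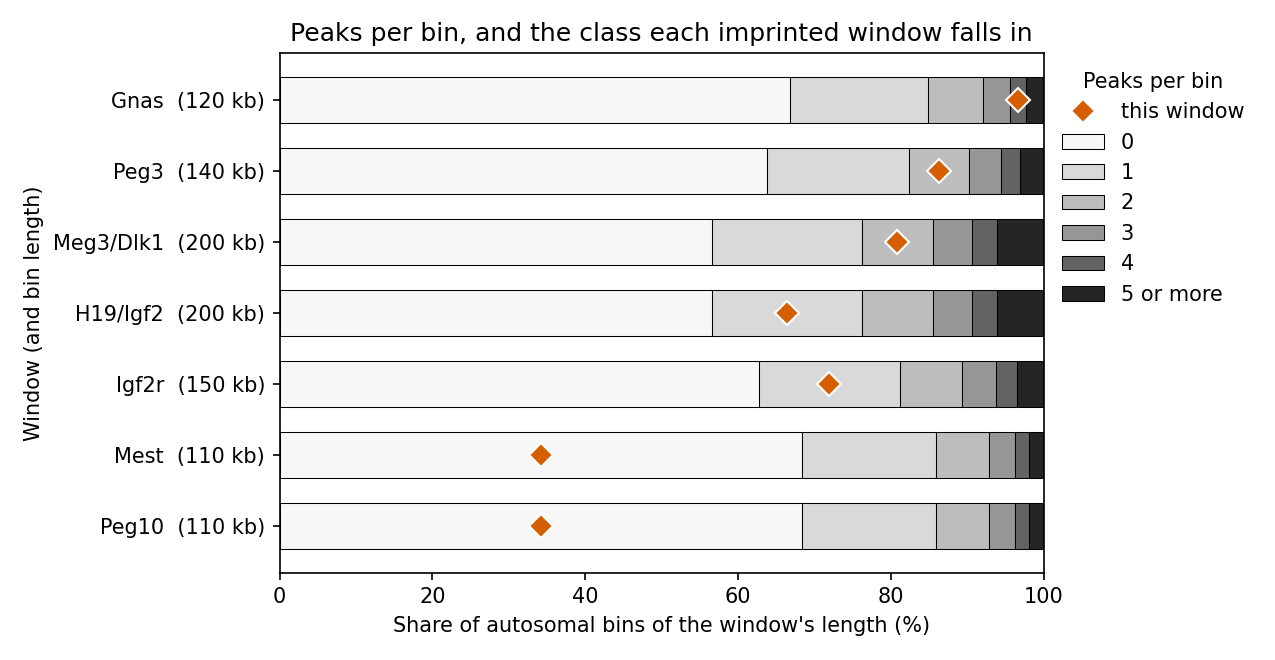
Share of autosomal bins (horizontal axis, %) with 0, 1, 2, 3, 4 or 5 and more Ino80 peaks, for bins of each window's length; the diamond stands in the class of the imprinted window itself. Gnas falls among the 4.4% of bins with at least 4 peaks, and Mest and Peg10 fall in the class without a peak, the most frequent at every length.

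Over the 7 windows together, 10 peaks in 1.03 Mb gave 9.71 peaks per Mb, compared with 5.24 per Mb over the 19 autosomes and 5.36 per Mb over the 5 chromosomes that carry the windows. Peaks covered 5.73% of the windows and 2.28% of the autosomal spans. Much of this came from Gnas, which held 53.0% of the summed peak width. Without Gnas, the other 6 windows had 6.59 peaks per Mb and a covered share of 3.05%. With peaks less than 5 kb apart joined, the 7 windows had 6.80 peaks per Mb and the autosomes 4.52 per Mb. The autosomal and chromosome spans include gene-poor sequence, whereas the windows were placed on genes. Their densities and covered shares are therefore no estimate for gene loci.

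The number of peaks within 1 Mb on each side was highest at Mest. Its flanks held 15 peaks before and 5 after the window, while the window itself had none. At Gnas the flanks held 7 and 3 peaks, or 5 per Mb against 5.56 for all of chromosome 2. Peg3 had 7 and 2 peaks in its flanks, Meg3/Dlk1 5 and 9, H19/Igf2 6 and 12, Igf2r 6 and 10, and Peg10 2 and 10. In the directly adjoining stretches of the window's own length, Peg3 and Meg3/Dlk1 had 0 peaks on either side. Gnas had 0 before and 3 after.

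Widths of the 10 peaks ran from 2000 bp at Igf2r to 10000 bp at Gnas, with a median of 5300 bp against 3600 bp for the whole list. The top 25% of the list, peaks of at least 5200 bp, included 5 of the 10 (3 at Gnas and both at Meg3/Dlk1), where 26.8% of all peaks met that width. At or above the list's median were 7 of the 10, against 51.6% of all peaks. The first Gnas peak was the only one of at least 10 kb, a width reached by 4.75% of the list. The first Meg3/Dlk1 peak was wider than 95% of the list, the H19/Igf2 peak wider than 55.9%, and the Igf2r peak wider than 14.3%. The 3 peaks below the median were both Peg3 peaks and that of Igf2r. Without Gnas the median width was 3700 bp, close to that of the list.

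**Figure D3:**
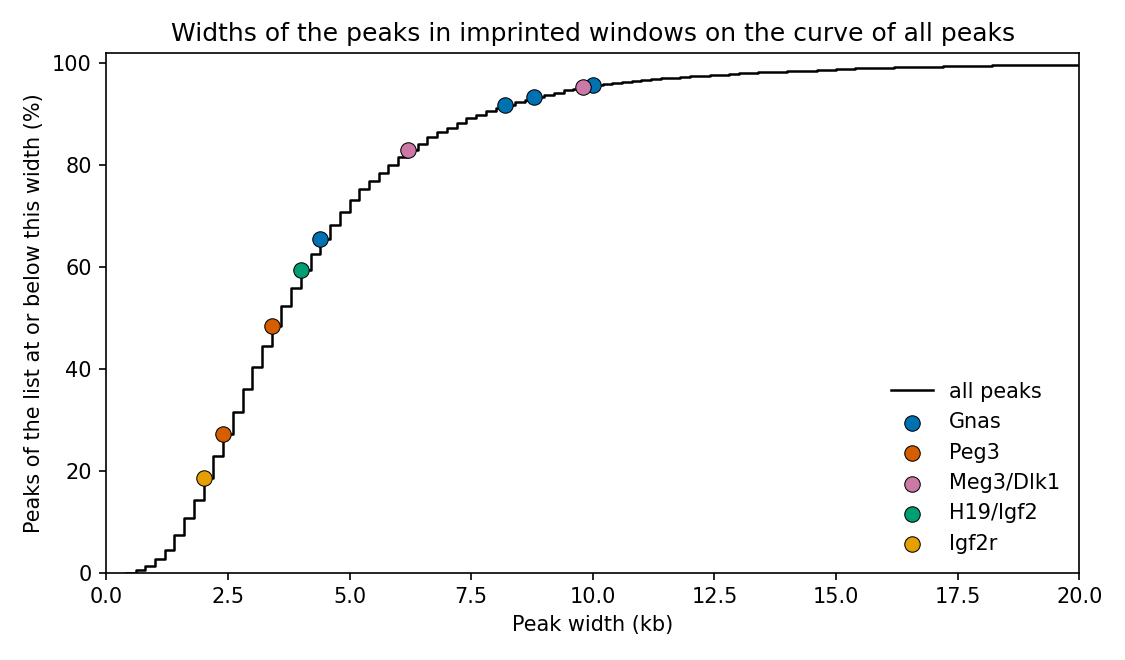
Cumulative share of all 12749 peaks (vertical axis, %) by peak width (horizontal axis, kb, shown to 20 kb), with the 10 peaks of the imprinted windows as coloured points on the curve. Both Meg3/Dlk1 peaks and 3 Gnas peaks lie towards the wide end, up to 10 kb. The remaining Gnas peak, 4.4 kb wide, is wider than 62.6% of the list. Those of Peg3 and Igf2r lie below the list's median of 3600 bp.

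Peaks in the windows often had a close neighbour. For 6 of the 10 another peak was less than 5 kb away, namely the pairs at Peg3 and Meg3/Dlk1 and the middle 2 peaks of Gnas, and this held for 23.8% of the whole list. The distance was 1.6 kb both at Peg3 and between the middle Gnas peaks, and 11.5% of all peaks had a neighbour that near. Paired peaks share a locus and are not independent. With peaks less than 5 kb apart joined, Peg3 and Meg3/Dlk1 each had 1 peak and Gnas 3.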

How the data were processed

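The deposited list gives a name, chromosome, start, end and strand sign per Ino80 peak. These positions are other values than counts or signal, and this list, as deposited by the authors, holds no score, depth or fold per peak. Per the submitters' processing notes CASAVA 1.7, Bowtie 0.12.8, SICER 1.1 and bedtools were used, with builds mm9 and hg19, without roles. Settings of the caller, its control library and any pooling of samples were not given in the sources used here. The list was assigned to the Ino80 ChIP by the sample title in its name. All starts and ends fit a 200 bp grid, and 1 bp was added to both. Positions were taken as mm9.

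Windows came from a fixed rule naming the 9 genes, and all 9 are described. The windows, and the lists looked at, were chosen with earlier results of these data known. Planned placement of peaks on genes and other imprinted genes was not run, since no mm9 annotation was used here. Neighbours, gene lengths and promoters came from RefSeq GRCm38.p6. All 9 members matched by symbol in its gene annotation, while H19 and Peg10 had no promoter entry. Counting used Python 3.11.15, pandas 2.3.3 and numpy 2.4.6 and was tested on simulated data. With 1 library no test between groups was made. Alternatives were the overlap rule, peak width, joining of peaks, window edges and bins.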

Additional observations from a re-analysis of the deposited data

How the results depend on the processing

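Each alternative was counted as a change when it moved a count, density, covered share or median width by more than 1.5 times, or a share of bins out of its 95% Clopper-Pearson interval, which covers counting error only and treats neighbouring bins as independent. Of 75 values under alternatives, 58 did not change and 17 did. Counting by midpoint or by whole peaks changed no window's number of peaks by more than 1.5 times. With peaks at or above the list's median width, Peg3 and Igf2r had 0 peaks and 3 windows held a peak. With the widest 25%, H19/Igf2, Peg3 and Igf2r had 0. Joining peaks less than 5 kb apart left 1 at Peg3 and 1 at Meg3/Dlk1. Extending windows by 50 kb brought 1 peak to Mest and 1 to Peg10. Shortening them by 20 kb left 0 at Igf2r. Bins of the same chromosome held a peak in 41.4% (Meg3/Dlk1), 40.9% (Igf2r), 27.2% (Mest and Peg10) and 36.0% (Gnas). Leaving out Gnas, chosen after seeing the data, lowered the covered share to 3.05%. Without depth or scores in the list, strictness could be varied through peak width alone. No paired analysis was possible because no group has more than 1 sample.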
